A study of Mus musculus with 3 samples.

Results

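The genes described here are 9 members of the CSF1 axis and of the set of genes that identify myeloid cells: the ligands Csf1 and Il34, the receptors Csf1r, Csf2ra and Csf2rb, the transcription factor gene Spi1, and the surface genes Ptprc, Adgre1 and Cx3cr1. They were chosen by name from the 29625 genes listed in at least 1 of the libraries (28930 for Ctrl, 26353 for Mid_Ob, 26350 for Ob), and 9 of 9 were found in every library. The study profiled nuclei of epididymal fat, the white fat depot beside the epididymis, with the 10x Genomics droplet method at 3 stages of diet-induced obesity. The Ctrl library came from mice on an ordinary diet, the Mid_Ob library from mice on a diet of 60% fat whose weight had passed the control mean by over 10%, and the Ob library from mice on that fat diet that had passed it by over 20%. All were male C57BL/6J mice bought at an age of 5 weeks, with no transgene or deletion in any group, and the tissue of 8 mice was pooled into 1 library per stage.

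Macrophages depend for survival and division on CSF1R, a receptor tyrosine kinase with a pair of ligands, CSF1 (also called M-CSF) and interleukin-34. GM-CSF acts on the same cells through another receptor, built from a binding chain (Csf2ra) and a signalling chain (Csf2rb) that it shares with interleukin-3 and interleukin-5. PU.1, the product of Spi1, is a transcription factor that sets myeloid identity and binds near many of these genes. Ptprc encodes CD45, a phosphatase on the surface of nearly all leukocytes, Adgre1 encodes F4/80, the classic surface marker of mouse macrophages, and Cx3cr1 encodes the receptor for fractalkine, found on monocytes and some tissue macrophages. Macrophages are the most numerous leukocytes of obese fat, and they surround large or dying adipocytes there.

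Promoter sequence is shown for a leukocyte gene, a receptor gene and a ligand gene of the axis, since the levels below separate leukocyte genes from ligand genes. RefSeq promoter entries on GRCm38.p6 were found for 4 of the 9 members (Ptprc, Csf1, Cx3cr1 and Csf2ra). The 250 bases before each start were searched on both strands for AGGAAG, the core of the PU-box, for its longer form GAGGAAGT, which contains the core, and for TATAAA. Capitals below mark AGGAAG, or CTTCCT where the core lies on the other strand. All these windows lie on the minus strand and read 5′ to 3′. They are chr1:138175306-138175555 for Ptprc, chr19:61228419-61228668 for Csf2ra and chr3:107760470-107760719 for Csf1. RefSeq lists a further start for Ptprc, whose window overlaps the one given and is not shown. Its 1 match is the same site as the match 57 bases before the start in the window given.
Ptprc: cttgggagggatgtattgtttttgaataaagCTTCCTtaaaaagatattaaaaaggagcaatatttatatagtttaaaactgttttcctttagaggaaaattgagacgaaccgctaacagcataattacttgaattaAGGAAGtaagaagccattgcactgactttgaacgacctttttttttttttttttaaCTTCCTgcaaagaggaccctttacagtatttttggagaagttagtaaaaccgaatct
Csf2ra: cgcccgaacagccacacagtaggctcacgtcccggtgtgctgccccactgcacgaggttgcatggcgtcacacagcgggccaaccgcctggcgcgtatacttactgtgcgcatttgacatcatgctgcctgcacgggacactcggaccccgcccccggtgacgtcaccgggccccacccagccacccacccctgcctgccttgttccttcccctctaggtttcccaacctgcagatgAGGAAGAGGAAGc
Csf1: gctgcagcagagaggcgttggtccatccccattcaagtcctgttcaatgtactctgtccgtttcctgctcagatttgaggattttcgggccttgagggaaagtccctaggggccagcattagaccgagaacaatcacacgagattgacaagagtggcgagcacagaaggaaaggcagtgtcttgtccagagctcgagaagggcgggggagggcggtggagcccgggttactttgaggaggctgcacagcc

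The Ptprc window held 3 core matches, beginning 219, 113 and 57 bases before the start, and 1 TATAAA match. The Csf2ra window held 2 core matches side by side, beginning 13 and 7 bases before the start, and the windows of Csf1 and Cx3cr1 held 0. The longer form was found in 0 of these windows. Of 32851 promoters of the same length, 29.5% held the core, 2.44% the longer form and 12.4% TATAAA, so a core match is common. A match is a string of letters and was not tested as a binding site.

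The libraries held 53980929 (Ctrl), 57665213 (Mid_Ob) and 111595518 (Ob) UMIs, the molecule counts of the droplet method, in 14, 11 and 21 clusters of the deposited tables. Clusters were given a name here only from marker lists that left out the 9 genes: macrophage-like clusters were 9 and 11 in Ctrl, 4 in Mid_Ob and 1, 2, 3, 11, 14 and 20 in Ob, and in each at least 5 of 16 macrophage markers were past 2-fold against the median over the remaining clusters of that library. Macrophage-like clusters 9 and 11 of Ctrl held 2502474 and 2273906 UMIs, and cluster 4 of Mid_Ob 3548585. In Ob the macrophage-like clusters held 4040277, 7134271, 6921996, 1531630, 517257 and 1709558 UMIs, in the order named. A gene's share in a class also follows the size of that class, so shares below are not compared between stages. Not every nucleus was of fat. Germ cell-like clusters held 26.3% and a testis somatic-like cluster 15.4% of the Ctrl UMIs, and epididymal epithelium-like clusters held 5.32% of the Ctrl and 30.3% of the Mid_Ob UMIs, while no Ob cluster took these names. Whole-library ratios of the members called higher or lower are therefore also given without them. The whole-library values of single pathway genes further down include them. Levels are UMI counts scaled to a total of 1e+06 for the same cluster, class or library (CPM), with exact Poisson 95% intervals, and ratios carry conditional exact binomial 95% intervals. Both cover counting error only. As each stage had 1 library, stages could not be tested against each other, so a gene is called higher or lower where the ratio passed 1.5-fold, the fold the study used, with at least 50 counts in the pair.

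Csf1 (GRCm38 chr3:107741048-107760469, minus strand) encodes the ligand M-CSF. Its level over all nuclei was 26.7 CPM in Ctrl, 29.0 CPM in Mid_Ob and 30.1 CPM in Ob, a narrow range. The level between clusters was far from even. In Ob it was highest in the fibroblast or progenitor-like clusters 8, 9 and 19, at 158, 126 and 68.9 CPM, and in Mid_Ob in the fibroblast or progenitor-like cluster 8, at 107 CPM. In Ctrl the highest level, 103 CPM, was that of cluster 4, which took no name and was led by Cadm3, C1qtnf7 and Sema3e. Mesothelial-like clusters, the lining of the fat pad, came next or close to it, with 54.5 and 59.3 CPM in Ctrl, 73.2 CPM in Mid_Ob and 64.4 CPM in Ob. The lowest Csf1 level of each library was in a macrophage-like cluster: 3.08 CPM in Ctrl cluster 11, 6.20 CPM in Mid_Ob cluster 4 and 5.61 CPM in Ob cluster 2. The step from the first to the second cluster was 1.74-fold (1.46 to 2.07) in Ctrl, 1.46-fold (1.17 to 1.81) in Mid_Ob and 1.25-fold (1.08 to 1.46) in Ob. Further down, the interval of 9 of 13 neighbour ratios in Ctrl, 7 of 10 in Mid_Ob and 18 of 20 in Ob held 1, so most neighbours did not differ beyond counting error.

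By total, adipocyte-like clusters supplied 23.6% of the Csf1 UMIs at the Ctrl stage, 51.8% at Mid_Ob and 45.4% at Ob, and fibroblast or progenitor-like clusters a further 37.7% in Ob. Macrophage-like clusters supplied 3.34%, 1.31% and 4.56% in the same order of stages. The adipocyte-like level itself was 24.9, 32.1 and 24.6 CPM, close to that of the whole library.

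Il34 (chr8:110741829-110805924, minus strand) encodes interleukin-34, the other ligand of CSF1R, and stood at 25.4 CPM in Ctrl, 91.9 CPM in Mid_Ob and 26.3 CPM in Ob. The Mid_Ob library alone was high. In it, 52.5% of the Il34 UMIs lay in epididymal epithelium-like clusters, 20.4% in unnamed clusters and 20.4% in the adipocyte-like cluster. The highest single level was 620 CPM in Mid_Ob cluster 7, unnamed and led by Kl and Tinag, and it was 2.21-fold (2.05 to 2.39) above the next, 280 CPM in the epididymal epithelium-like cluster 2. The Mid_Ob endothelial-like cluster 9 had 87.2 CPM. In Ctrl, too, the epididymal epithelium-like cluster led, at 143 CPM, 4.0-fold (3.21 to 5.03) above cluster 4 with 35.9 CPM. In Ob the leader was cluster 17, unnamed and led by Fam216b, Uox and Odf3b, at 320 CPM, followed by the fibroblast or progenitor-like clusters 8, 9 and 19 at 79.6, 73.2 and 39.6 CPM. The Ob lymphocyte-like cluster had 0 counts, which allows up to 4.02 CPM at 3 counts.

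**Figure D1:**
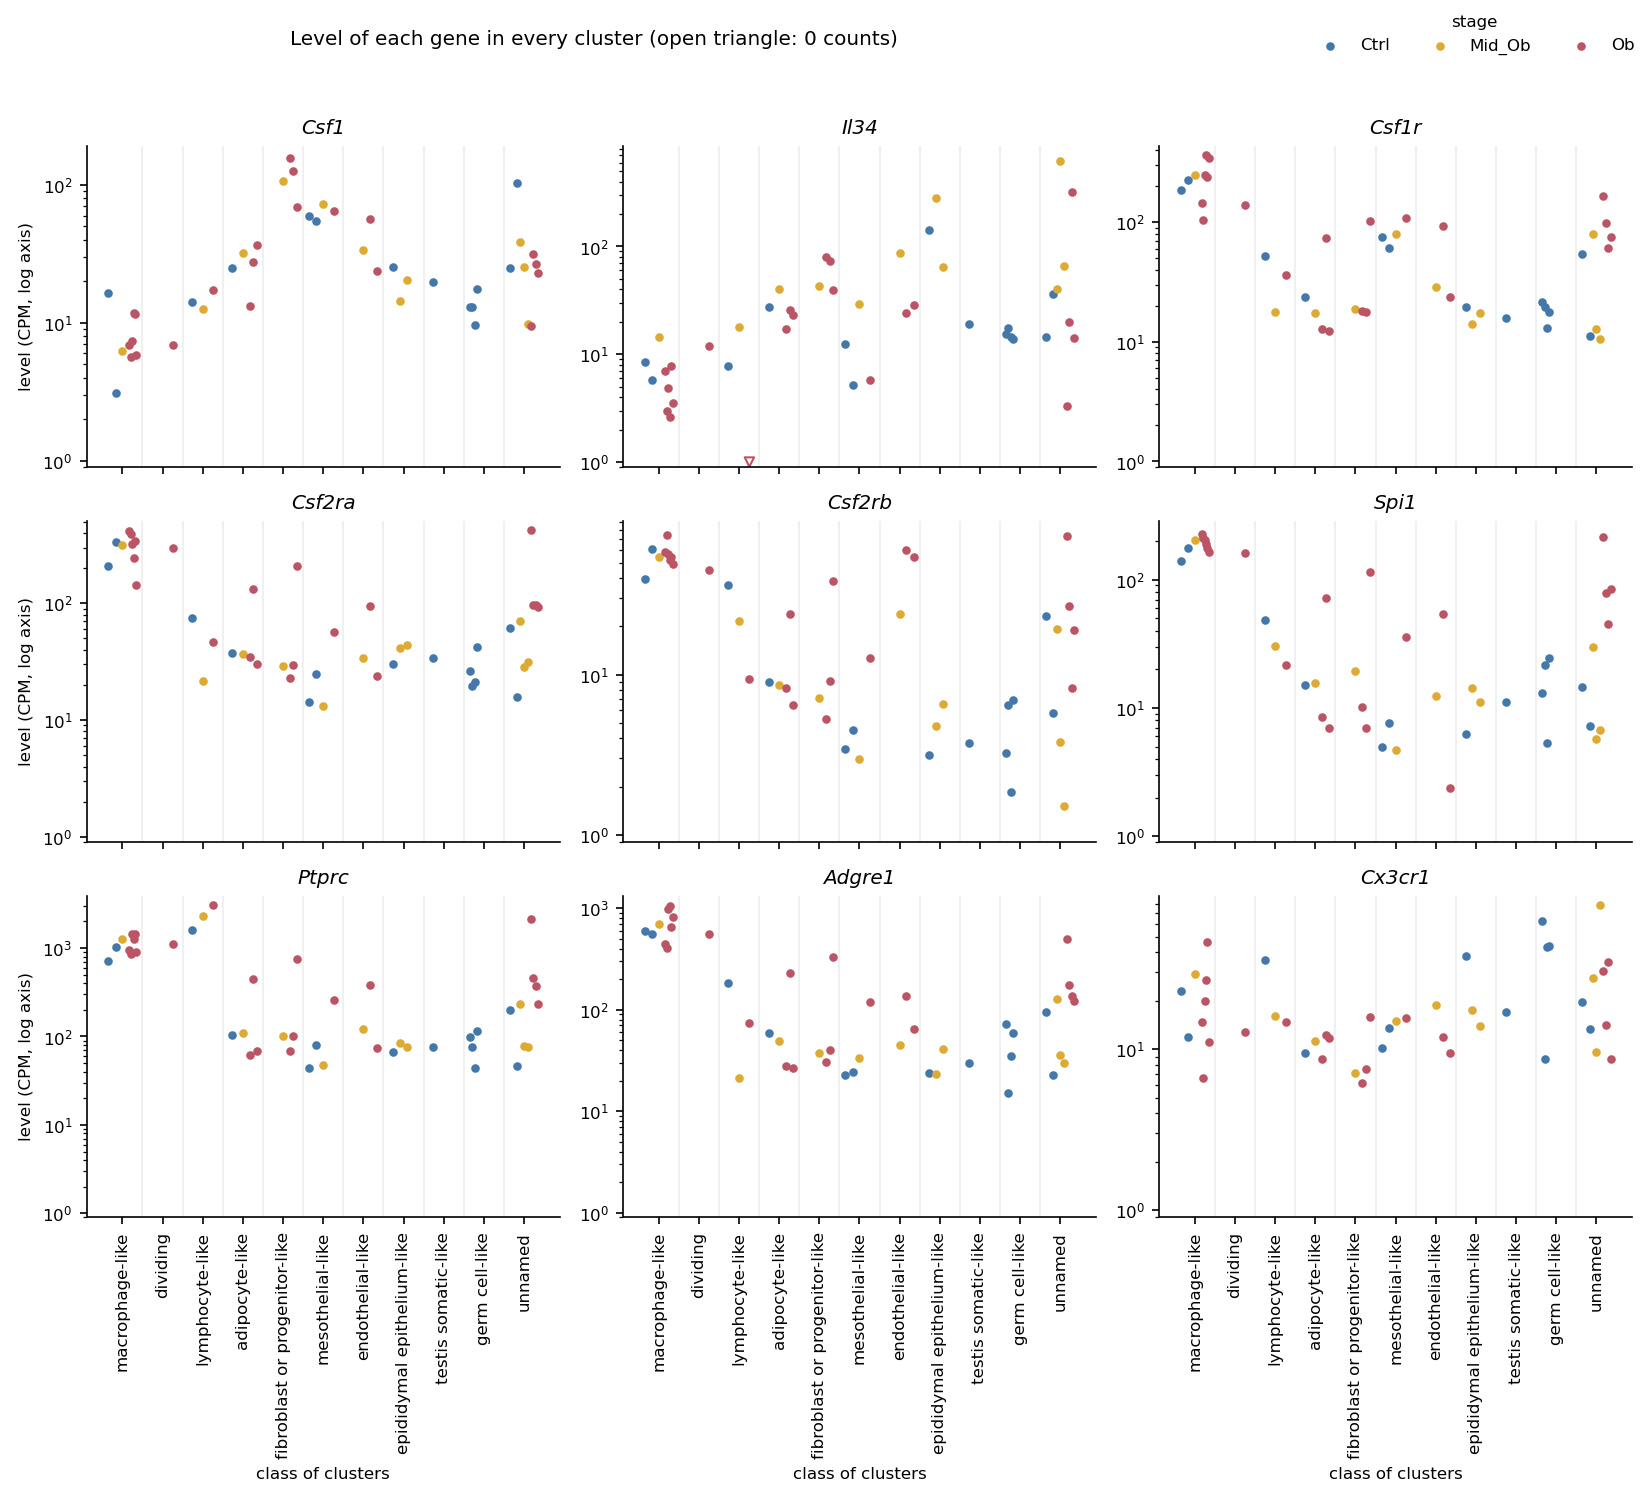
CPM of each of the 9 genes (log axis, 1 panel per gene) in the 46 clusters, sorted by class along the horizontal axis and coloured by stage; an open triangle at 1 marks 0 counts. Csf1r, Csf2ra, Csf2rb, Spi1 and Adgre1 rise in the macrophage-like clusters, and the lowest Csf1 point of each library is a macrophage-like cluster, while the highest Il34 point is the 620 CPM of an unnamed Mid_Ob cluster.

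Csf1r (chr18:61100598-61132149, plus strand) had 205 CPM in the macrophage-like clusters of Ctrl, 250 CPM in that of Mid_Ob and 197 CPM in those of Ob, and these clusters held 43.6%, 44.7% and 43.9% of its UMIs. The highest cluster of each library was macrophage-like: cluster 11 in Ctrl (227 CPM), cluster 4 in Mid_Ob (250 CPM) and cluster 11 in Ob (363 CPM). The first and second place in Ob, clusters 11 and 20, differed 1.05-fold with an interval of 0.937 to 1.19 and so could not be told apart. Outside the macrophage-like clusters the next level in Ctrl and Mid_Ob was mesothelial-like, at 74.8 CPM (Ctrl cluster 3), 60.3 CPM (Ctrl cluster 5) and 79.2 CPM (Mid_Ob cluster 6). The mesothelial-like cluster of Ob had 109 CPM. The lowest levels were 11.1 CPM in Ctrl cluster 4, 10.6 CPM in Mid_Ob cluster 11 and 12.3 CPM in the adipocyte-like Ob cluster 7. Nuclei that should lack the gene set a floor close to these: germ cell-like clusters of Ctrl had 16.3 CPM and epididymal epithelium-like clusters of Mid_Ob 15.9 CPM, and levels near these were read as background.

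The mesothelial-like signal of Csf1r did not come with the other macrophage genes. For every 100 Adgre1 counts there were 303 (248 to 372) Csf1r counts in the mesothelial-like clusters of Ctrl, 234 (179 to 309) in that of Mid_Ob and 91.2 (77.8 to 107) in that of Ob. In the macrophage-like clusters the same figure was 35.6 (33.0 to 38.3) in Ctrl, 35.5 (32.8 to 38.3) in Mid_Ob and 29.0 (28.0 to 30.0) in Ob. Against Spi1 it was 1241, 1682 and 304 Csf1r counts per 100 in the mesothelial-like clusters, and 131, 123 and 96 per 100 in the macrophage-like ones. Both ratios were more than 3-fold apart between the classes in each library, and their intervals did not overlap. Csf1r shares 873 bases with Hmgxb3 on the other strand, and Hmgxb3 was level across classes (41.9, 41.9 and 47.0 CPM in the mesothelial-like clusters of Ctrl, Mid_Ob and Ob, and 48.4, 48.5 and 56.4 CPM in the macrophage-like ones). Whether the counting used strand is not given in the sources used here.

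**Figure D2:**
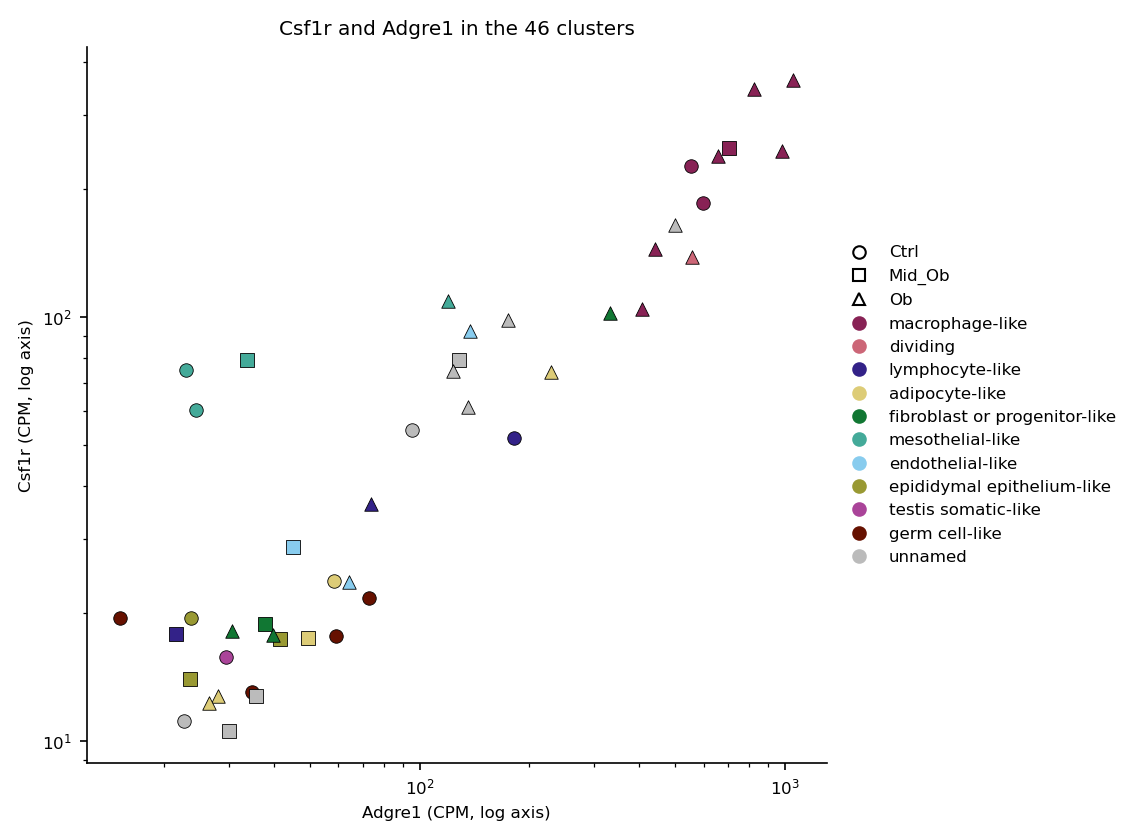
Csf1r against Adgre1, both in CPM on log axes, 1 point per cluster (46 clusters, coloured by class, with the marker shape giving the stage). Most clusters lie along a band, and the mesothelial-like clusters of Ctrl and Mid_Ob sit above it, with 60.3 to 79.2 CPM of Csf1r at 23.0 to 33.8 CPM of Adgre1.

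Csf2ra (chr19:61223957-61228429, minus strand), the GM-CSF binding chain, had 270, 313 and 344 CPM in the macrophage-like clusters of Ctrl, Mid_Ob and Ob. It was highest in a macrophage-like cluster in Ctrl (cluster 11, 336 CPM) and Mid_Ob (cluster 4, 313 CPM, 4.45-fold (3.15 to 6.50) above the second). In Ob cluster 6 had 425 CPM and macrophage-like cluster 1 had 417 CPM, a ratio of 1.02 (0.949 to 1.09). Cluster 6 took no name and was led by Clec9a and Flt3, genes known from conventional dendritic cells. The lowest Csf2ra levels were 14.3 CPM in Ctrl cluster 3 and 13.3 CPM in Mid_Ob cluster 6, both mesothelial-like, where Csf1r was well above its floor.

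Csf2rb (chr15:78325752-78353847, plus strand), the shared signalling chain, had 49.8, 54.4 and 62.0 CPM in the macrophage-like clusters of Ctrl, Mid_Ob and Ob. In Ob the order of the 21 clusters ran from 74.7 CPM (cluster 2) to 5.29 CPM (cluster 8), and 20 of 20 neighbour ratios had an interval that held 1. Endothelial-like clusters also carried it, with 23.8 CPM in Mid_Ob cluster 9 and 59.8 and 54.5 CPM in Ob clusters 16 and 21. Ob cluster 21 had 23 Csf2rb counts beside 1 Spi1 count, and cluster 16 had 20 beside 18. The endothelial-like clusters held 191 (113 to 332) Csf2rb counts per 100 Spi1 counts in Mid_Ob and 226 (129 to 411) in Ob, against 26.9 (22.8 to 31.6) and 30.2 (28.4 to 32.1) in the macrophage-like ones. Csf2rb has a near copy in the mouse, Csf2rb2, the interleukin-3 specific chain, and reads that fit both genes cannot be assigned, so both values are uncertain. Csf2rb2 was far lower, at 10.3, 11 and 19.8 CPM in the macrophage-like clusters, with its highest level, 28.6 CPM, in Ob cluster 2, where Csf2rb was also highest.

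Spi1 (chr2:91082390-91115756, plus strand) had the largest part of its UMIs in macrophage-like clusters in every library: 57.4% in Ctrl, 48.8% in Mid_Ob and 45.8% in Ob. It stood there at 157, 202 and 205 CPM. In Mid_Ob the macrophage-like cluster was 6.65-fold (4.12 to 11.5) above the second, the lymphocyte-like cluster with 30.4 CPM. In Ob the top 2 were cluster 1 with 227 CPM and the Clec9a and Flt3 cluster 6 with 215 CPM, a ratio of 1.06 (0.956 to 1.17). The floor was low: 9.94 CPM in germ cell-like clusters of Ctrl, 12.6 CPM in epididymal epithelium-like clusters of Mid_Ob and 2.37 CPM (1 count) in Ob cluster 21.

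Ptprc (chr1:138062861-138175708, minus strand), the pan-leukocyte gene, was highest in the lymphocyte-like cluster of each library, at 1587 CPM in Ctrl, 2294 CPM in Mid_Ob and 3092 CPM in Ob. Macrophage-like clusters followed in Ctrl and Mid_Ob, and in Ob the Clec9a and Flt3 cluster 6 came second with 2143 CPM. In the macrophage-like class Ptprc had 863, 1252 and 1103 CPM. Ptprc was at 67.7 CPM in germ cell-like clusters of Ctrl and 79.1 CPM in epididymal epithelium-like clusters of Mid_Ob, close to the lowest cluster levels, 43.5 CPM in Ctrl, 47.9 CPM in Mid_Ob and 62.1 CPM in Ob.

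Adgre1 (chr17:57358691-57483527, plus strand), the F4/80 gene, was highest in macrophage-like clusters throughout: 598 CPM in Ctrl cluster 9, 704 CPM in Mid_Ob cluster 4 and 1055 CPM in Ob cluster 11. Of its UMIs, 55.5%, 52.0% and 48.0% lay in the macrophage-like class. Ctrl clusters 9 and 11 (598 and 553 CPM) differed 1.08-fold, with an interval of 1.0 to 1.17. In lymphocyte-like clusters, which should lack F4/80, Adgre1 was at 182 CPM in Ctrl, 21.5 CPM in Mid_Ob and 73.7 CPM in Ob. The summed macrophage markers of these clusters were 1366 CPM in Ctrl, 621 CPM in Mid_Ob and 1180 CPM in Ob, and their part in the Adgre1 levels was not tested.

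Cx3cr1 (chr9:119901616-120069879, minus strand) did not follow the other leukocyte genes. Its whole-library level was 23.9 CPM in Ctrl, 15.7 CPM in Mid_Ob and 13 CPM in Ob, and germ cell-like clusters held 52.8% of its UMIs in Ctrl. The highest clusters were germ cell-like cluster 7 in Ctrl (62.5 CPM), the unnamed cluster 11 in Mid_Ob (78.4 CPM, led by Ptpn20, Cdr1os and Zfp474) and macrophage-like cluster 14 in Ob (46.4 CPM). Only 6.58%, 11.5% and 22.7% of its UMIs lay in macrophage-like clusters, at 17.8, 29.3 and 15.1 CPM. The gene's span in GENCODE M21 includes a transcript of 166.7 kb beside shorter ones of 19.6 and 21.2 kb, and it shares 30188 bases with Ttc21a and 24972 bases with Wdr48, both on the other strand. Ttc21a, a gene of ciliated and flagellated cells, stood at 200 CPM in Ctrl cluster 7, 351 CPM in Mid_Ob cluster 11 and 125 CPM in Ob cluster 17, the clusters where Cx3cr1 was first, first and second. Across the 46 clusters the rank correlation of Cx3cr1 with Ttc21a was 0.41, a description of points that share libraries. On the same strand Cx3cr1 shares 13496 bases with Csrnp1, 12309 with Gorasp1 and 9844 with Xirp1. Without strand in the counting, reads from Cx3cr1 and its antisense neighbours cannot be told apart. Reads in the same-strand overlaps can be ambiguous even with strand. Levels of Cx3cr1 are therefore uncertain outside leukocyte clusters and within them.

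**Figure D3:**
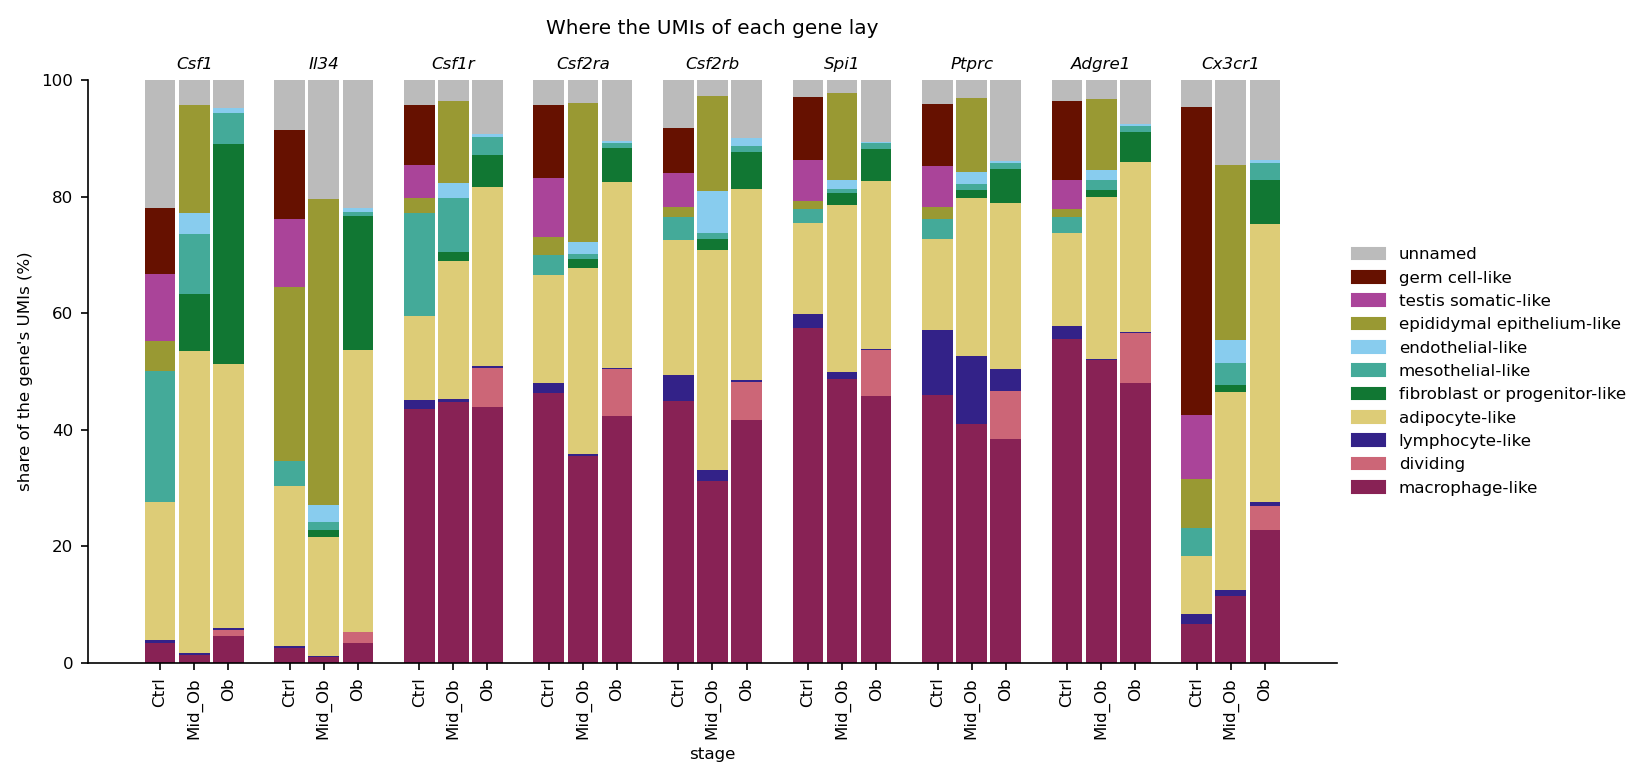
Share of each gene's UMIs (percent, stacked bars) by cluster class in Ctrl, Mid_Ob and Ob. Macrophage-like clusters hold 43.6% to 44.7% of Csf1r and under 5% of Csf1 and Il34 at every stage, and germ cell-like clusters hold 52.8% of Cx3cr1 in Ctrl.

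Over whole libraries Csf1r, Csf2ra, Csf2rb, Spi1, Ptprc and Adgre1 were called higher in Ob than in Mid_Ob, 1 gene (Il34) was called lower, and Csf1 and Cx3cr1 stayed within 1.5-fold. Of 19814 genes with enough counts in this pair, 17.5% were called higher and 27.3% lower. The receptor Csf1r had 87.8 CPM in Ob against 34.4 CPM in Mid_Ob (2.55-fold, 2.43 to 2.68). Csf2ra had 159 CPM in Ob and 54.4 CPM in Mid_Ob (2.92-fold, 2.81 to 3.04), and Csf2rb 29.1 and 10.7 CPM (2.71-fold, 2.49 to 2.96). Spi1 had 87.8 CPM in Ob and 25.5 CPM in Mid_Ob (3.44-fold, 3.26 to 3.64). Ptprc had 563 and 188 CPM (2.99-fold, 2.93 to 3.05), and Adgre1 277 and 83.4 CPM (3.32-fold, 3.22 to 3.43). Il34 was 3.49-fold (3.34 to 3.66) lower in Ob. The ratio was 1.04 (0.976 to 1.10) for Csf1 and 0.830 (0.763 to 0.903) for Cx3cr1.

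Set against Ctrl, Ob again had 6 genes higher and 1 lower, where 18.1% of 22268 genes were called higher and 43.5% lower. Both comparisons use the same Ob library. The ratios were 2.11 (2.01 to 2.21) for Csf1r, 3.08 (2.96 to 3.21) for Csf2ra, 2.97 (2.71 to 3.26) for Csf2rb, 3.64 (3.43 to 3.86) for Spi1, 3.38 (3.31 to 3.46) for Ptprc and 3.01 (2.93 to 3.11) for Adgre1. Cx3cr1 was 1.84-fold (1.71 to 1.99) lower, and Csf1 and Il34 had ratios of 1.13 (1.06 to 1.20) and 1.04 (0.971 to 1.10). Between Mid_Ob and Ctrl 1 gene was called higher (Il34, 3.62-fold, 3.41 to 3.84) and 1 lower (Cx3cr1, 1.53-fold, 1.40 to 1.66), where 17.3% of 22208 genes were called higher and 35.5% lower. The other 7 stayed within 1.5-fold.

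The median log2 ratio of all genes was not 0: it was -0.09 for Ob over Mid_Ob, -0.35 for Ob over Ctrl and -0.16 for Mid_Ob over Ctrl. With these medians set to 0 the same 6 genes were called higher in Ob, while the lower calls of Cx3cr1 were lost. The 16 macrophage markers that named the clusters moved alongside: their summed level was 3184 CPM in Ob, against 1001 CPM in Mid_Ob and 1415 CPM in Ctrl, 15 of 16 were called higher in Ob than in Mid_Ob and 14 of 16 higher than in Ctrl. More macrophage nuclei and more RNA per nucleus cannot be told apart in a sum over a library.

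Clusters of testis and epididymis take UMIs from the denominator in Ctrl and Mid_Ob. With them left out, Csf1r in Ob was 1.37-fold above Ctrl and no longer called, and the ratios of Csf2ra, Csf2rb, Spi1, Ptprc and Adgre1 were 2.20, 1.86, 2.39, 2.24 and 2.0. Without the same clusters the Ob over Mid_Ob ratios of Csf1r, Csf2ra and Csf2rb were 2.07, 2.68 and 2.26. Those of Spi1, Ptprc and Adgre1 were 2.82, 2.39 and 2.64, and none of these calls was lost. In Mid_Ob Csf1r was then called lower than in Ctrl, with a ratio of 0.663. The share of all genes called without these clusters was not computed. Cx3cr1, led by germ cell-like clusters in Ctrl, then had a ratio of 1.04 for Ob over Ctrl and 1.25 for Mid_Ob over Ctrl, so both lower calls were lost and their direction turned. Il34 remained higher in Mid_Ob than in Ctrl, 3.03-fold, and 2.03-fold with unnamed clusters left out as well. Its difference between Ob and Mid_Ob shrank to 2.38-fold lower without testis and epididymal clusters and 1.76-fold lower without unnamed ones too.

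Within macrophage-like clusters the whole-library rise in Ob was not seen: 0 of the 9 genes were called higher in Ob than in Mid_Ob, where 13.1% of 13756 genes were, and 2 were called lower, where 18.4% were. Csf1r was at 197 CPM (191 to 203) in Ob against 250 CPM (234 to 267) in Mid_Ob, a ratio of 0.789 (0.734 to 0.849). With single Ob clusters left out, this ratio ran from 0.697 (without cluster 3) to 0.968 (without cluster 2). Csf2ra, Csf2rb, Spi1, Ptprc and Adgre1 had ratios of 1.10, 1.14, 1.01, 0.880 and 0.965. The called genes were Il34, 3.24-fold (2.26 to 4.59) lower at 97 counts in Ob and 51 in Mid_Ob, and Cx3cr1, 1.95-fold (1.55 to 2.43) lower at 15.1 CPM in Ob against 29.3 CPM in Mid_Ob. Summed monocyte and dendritic cell markers of these clusters moved in the same direction, with Ob over Mid_Ob ratios of 0.435 and 0.185. Over whole libraries these sums had ratios of 1.84 and 1.03. Epididymal epithelium markers summed to 22.3 CPM in the macrophage-like clusters of Ob and 1259 CPM in that of Mid_Ob, 56.4-fold lower. The part of these marker groups in the Il34 and Cx3cr1 values was not tested.

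Against Ctrl the macrophage-like clusters of Ob had 0 genes called higher (13.7% of 14249 genes were) and 1 called lower, Il34 (24.1% were), 1.60-fold with an interval of 1.05 to 2.39. Csf1r was even closer, 197 CPM in Ob and 205 CPM in Ctrl, a ratio of 0.960 (0.895 to 1.03). The ratios of Csf2ra, Csf2rb, Spi1, Ptprc and Adgre1 lay between 1.18 and 1.31. These Ob over Ctrl values depend on which Ctrl cluster stands for the class: without Ctrl cluster 11, Csf2ra, Csf2rb and Ptprc were called higher at 1.63, 1.57 and 1.56-fold and Csf1 and Cx3cr1 lower at 2.34 and 1.54-fold. Without Ctrl cluster 9, Csf1 was called higher at 2.27-fold, and Il34, with a ratio of 0.776, was no longer called. The shares of all genes called without Ctrl cluster 11 or 9 were not computed, so these calls have no background.

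Between Mid_Ob and Ctrl the macrophage-like clusters had 2 genes called higher (8.71% of 11970 genes were) and 1 called lower (14.8% were). Il34 was 2.02-fold (1.28 to 3.21) and Cx3cr1 1.65-fold (1.22 to 2.22) higher in Mid_Ob. Csf1 was 1.62-fold lower in Mid_Ob, at 22 counts there and 48 in Ctrl, with an interval of 0.960 to 2.82 that held 1. Without Ctrl cluster 9, which had 41 of those 48 counts, its ratio was 2.01, the other way. Without Ctrl cluster 11 Cx3cr1 had a ratio of 1.26 and was no longer called, and Ptprc was called higher at 1.77-fold. The share of all genes called in that setting was not computed. Epididymal epithelium markers summed to 1259 CPM in the Mid_Ob macrophage-like cluster and 82.1 CPM in the Ctrl ones, a 15.3-fold difference, and Il34 was led by epididymal epithelium-like and unnamed clusters in Mid_Ob. Their part in the Il34 value was not tested.

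In adipocyte-like clusters the stages again differed in the leukocyte genes. Of the 9 genes, 6 were called higher in Ob than in Mid_Ob (15.3% of 17738 genes were) and 1 lower (19% were): Csf1r 2.79-fold, Csf2ra 2.47-fold, Csf2rb 2.0-fold, Spi1 2.93-fold, Ptprc 2.67-fold and Adgre1 2.95-fold higher, and Il34 1.74-fold lower. Against Ctrl, 6 were called higher in Ob (18.8% of 17826 genes were) and 0 lower (27.6% were), with ratios of 2.04, 2.42, 1.92, 3.06, 2.82 and 2.50 in the same order of genes. Between Mid_Ob and Ctrl 0 were called higher and 0 lower, where 15.3% and 20.2% of 17042 genes were. Epididymal epithelium markers summed to 79.2 CPM in the adipocyte-like clusters of Ob and 2263 CPM in that of Mid_Ob. Their part in the Il34 value was not tested.

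All of these higher calls rested on Ob cluster 5. Csf1r was at 74.0 CPM there, against 12.8 and 12.3 CPM in the other adipocyte-like clusters of Ob, 4 and 7, and Ptprc was at 448 CPM, against 62.1 and 68.6 CPM. The summed macrophage markers were 2634 CPM in cluster 5 and 581 and 623 CPM in clusters 4 and 7, while adipocyte markers were 21581, 33627 and 34708 CPM. Without cluster 5 the 6 genes had ratios of 0.516 to 0.898 for Ob over Mid_Ob and of 0.474 to 0.882 for Ob over Ctrl, and 0 were called higher. The share of all genes called without cluster 5 was not computed. In clusters 4 and 7 the levels were close to those of the germ cell-like and epididymal epithelium-like clusters of Ctrl and Mid_Ob, which should lack these genes. The part of macrophage RNA in the cluster 5 values was not tested. Csf1, of which the adipocyte-like class held the largest share in both fat-fed libraries, was at 24.6 CPM in Ob and 32.1 CPM in Mid_Ob, a ratio of 0.767 (0.706 to 0.835).

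**Figure D4:**
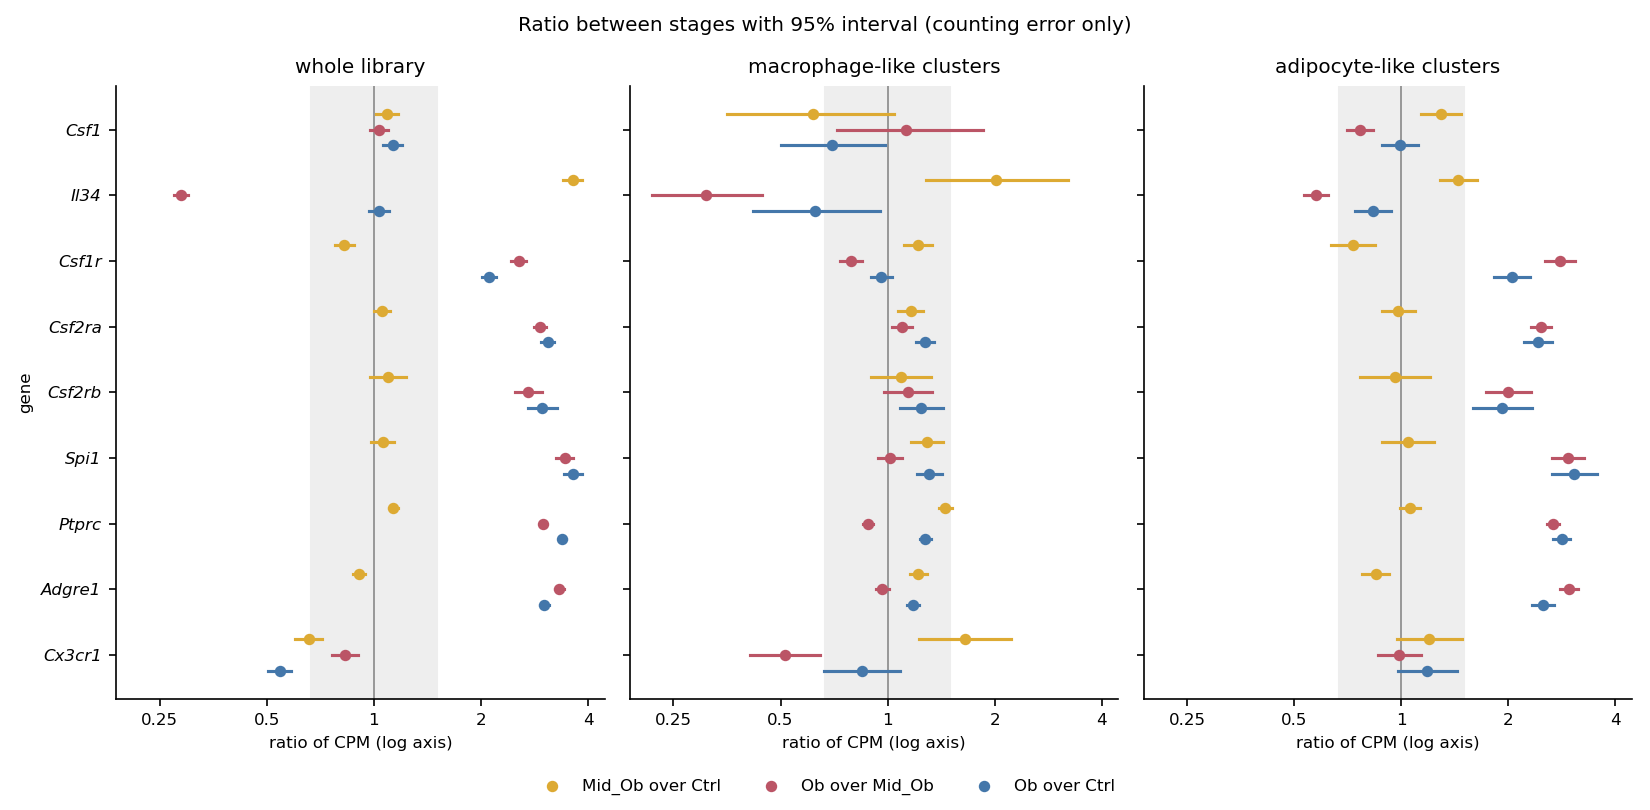
Ratio of CPM between stages (log axis) with 95% counting interval for each gene, over whole libraries, macrophage-like clusters and adipocyte-like clusters; the grey band spans ratios within 1.5-fold. Csf1r, for example, lies at 2.55 for Ob over Mid_Ob in the whole library, 0.789 in macrophage-like clusters and 2.79 in adipocyte-like clusters.

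The mesothelial-like clusters gave a similar picture for Csf2ra, Spi1, Ptprc, Adgre1 and Il34. Of 8 members with enough counts, 4 were called higher in Ob than in Mid_Ob, 1 lower and 3 stayed within 1.5-fold. The share of all genes called was not computed for this class. The ratio of Ob over Mid_Ob was 4.28 (2.90 to 6.51) for Csf2ra, 7.61 (4.07 to 15.7) for Spi1, 5.39 (4.41 to 6.64) for Ptprc, 3.53 (2.75 to 4.57) for Adgre1 and 0.196 (0.106 to 0.341) for Il34. The mesothelial-like cluster of Mid_Ob had the lowest Csf2ra, Spi1 and Ptprc levels of that library, at 13.3, 4.71 and 47.9 CPM. The Spi1 level was below the floor given above, so its ratio rests on few counts. The summed macrophage markers of the mesothelial-like clusters were 3.54-fold higher in Ob. Their epididymal epithelium markers were 5.56-fold lower in Ob, and the part of these in the Il34 ratio was not tested. Csf1r was 1.37-fold (1.14 to 1.66) above Mid_Ob, at 109 against 79.2 CPM, and Csf1 had a ratio of 0.880 (0.709 to 1.09). The fibroblast or progenitor-like clusters of Ob were uneven in the leukocyte genes as adipocyte-like ones were. Ptprc stood at 756 CPM in cluster 19, against 67.7 and 101 CPM in clusters 8 and 9, and Csf1r at 102 CPM, against 18.2 and 17.8 CPM. The summed macrophage markers were 3932 CPM in cluster 19, against 533 and 776 CPM in clusters 8 and 9, and their part in these levels was not tested.

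The 6 macrophage-like clusters of Ob, led by different genes, differed among themselves in the receptors. Csf1r was at 363 CPM in cluster 11 (led by Cd209f and Lyve1, a gene known from lymphatic vessels and some resident macrophages), 345 CPM in cluster 20 (Cd209b, Ednrb), 246 CPM in cluster 3 (Fcgr4, Ms4a7), 240 CPM in cluster 14 (Gpr141, Klra2), 145 CPM in cluster 1 (Cxcl2, Myh15) and 105 CPM in cluster 2 (Pou3f1, Tm4sf19). Highest over lowest it was 3.47-fold (3.10 to 3.88). Csf2ra ran nearly the other way, with 417 CPM in cluster 1, 392 CPM in cluster 2, 342 CPM in cluster 14, 324 CPM in cluster 3, 244 CPM in cluster 11 and 143 CPM in cluster 20, a spread of 2.91-fold (2.54 to 3.34). Clusters 1 and 2 were thus lowest for the CSF1 receptor and highest for the GM-CSF binding chain.

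Adgre1 followed Csf1r: 1055 CPM in cluster 11, 985 CPM in cluster 3, 821 CPM in cluster 20, 657 CPM in cluster 14, 441 CPM in cluster 1 and 405 CPM in cluster 2, a spread of 2.60-fold (2.45 to 2.77). The identity gene Spi1 ran from 227 CPM in cluster 1 to 166 CPM in cluster 20 (1.37-fold, 1.20 to 1.57). This was the smallest spread among the members with at least 1000 counts in these clusters. Csf2rb spanned 1.52-fold (1.21 to 1.94), an interval that overlapped that of Spi1, and Ptprc 1.66-fold (1.61 to 1.71). Cx3cr1 spanned 7.04-fold (4.12 to 11.8), from 46.4 CPM in cluster 14 to 6.59 CPM in cluster 2, on 24 and 47 counts. Csf1 spanned 2.10-fold (1.13 to 3.74) and Il34 2.96-fold (0.552 to 15.9). For 4378 genes with at least 1000 counts in these clusters the median spread was 1.64-fold and the middle of the range, quartile to quartile, 1.37 to 2.33-fold. Cx3cr1, Csf1 and Il34 had only 329, 153 and 97 counts in these clusters, so their spreads cannot be set against that range. Because clusters were made from all genes, these spreads are a description.

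**Figure D5:**
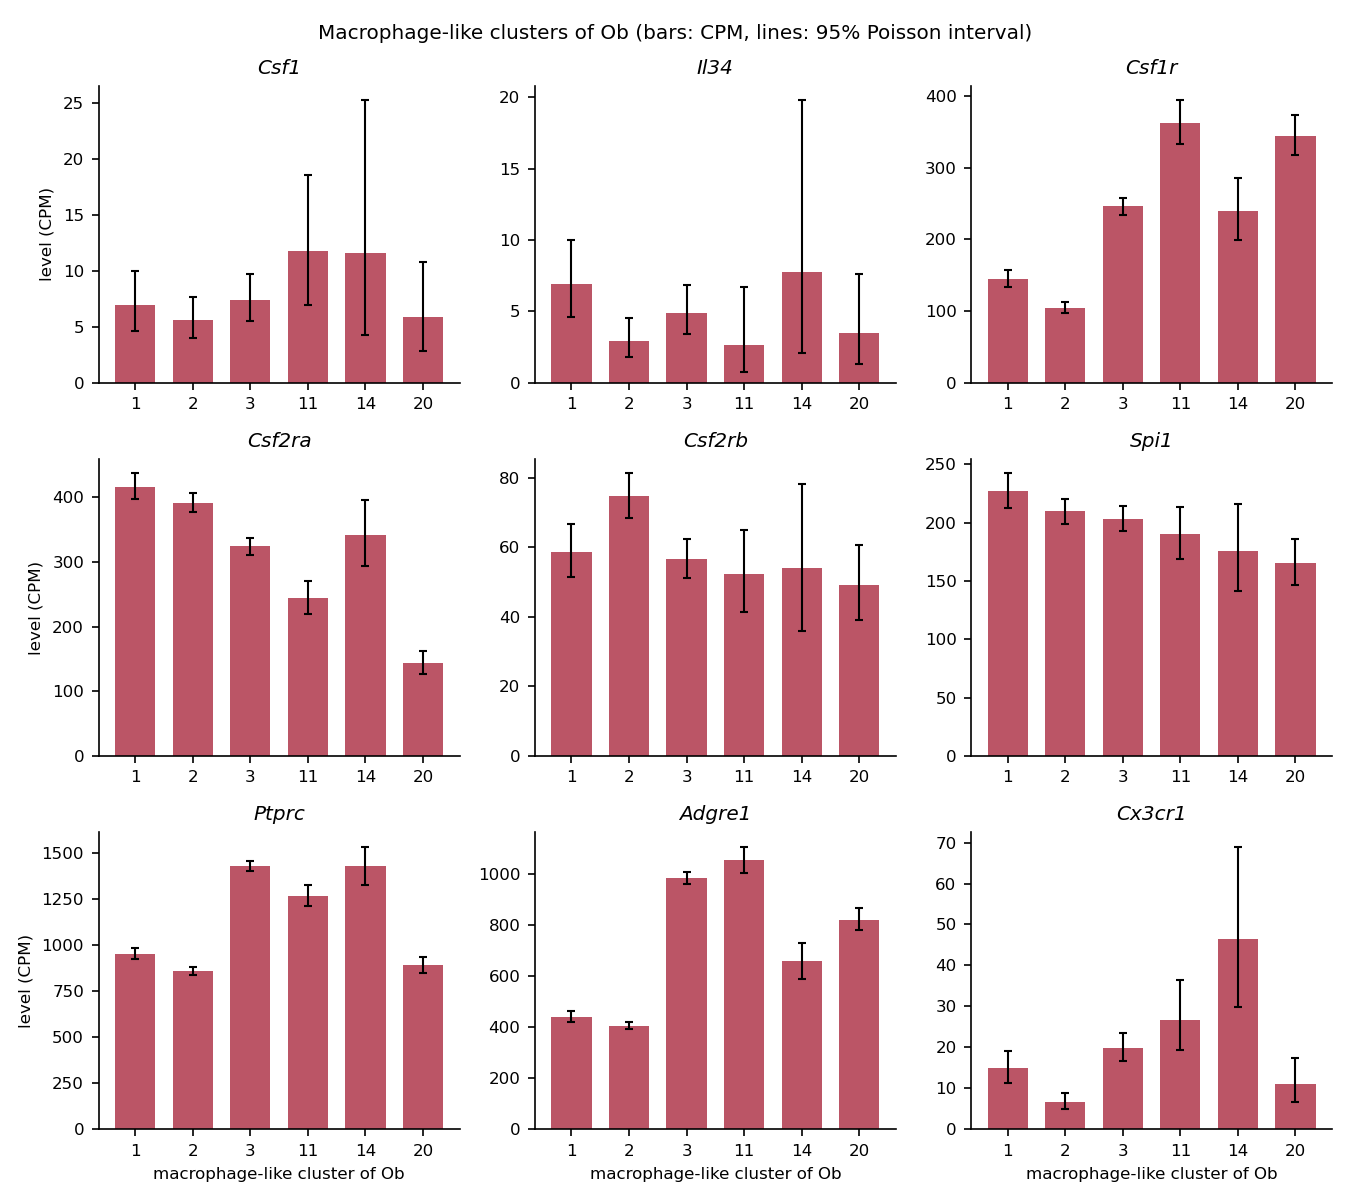
CPM of each gene (bars from 0, with exact Poisson 95% intervals) in the 6 macrophage-like clusters of Ob. Csf1r is highest in clusters 11 and 20 (363 and 345 CPM) and lowest in clusters 1 and 2 (145 and 105 CPM), where Csf2ra is highest (417 and 392 CPM).

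The pair of macrophage-like clusters of Ctrl showed a different order, with cluster 11 above cluster 9 for both receptors: Csf1r at 227 and 185 CPM, Csf2ra at 336 and 211 CPM, and Csf2rb at 61.1 and 39.6 CPM. Spi1 (175 and 139 CPM) and Ptprc (1035 and 706 CPM) followed, whereas Csf1 was at 3.08 CPM in cluster 11 and 16.4 CPM in cluster 9, and Cx3cr1 at 11.9 and 23.2 CPM.

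Across the 46 clusters, as a description of points that share libraries and free RNA, the rank correlation was 0.89 between Csf2ra and Spi1, 0.89 between Csf2ra and Adgre1, 0.88 between Spi1 and Ptprc and 0.83 between Csf1r and Adgre1. The ligands ran against the receptor, at -0.33 for Csf1 with Csf1r and -0.62 for Il34 with Csf1r, and with each other they had 0.57. Cx3cr1 had -0.30 to 0.24 with the other 8. Among 11609 genes with at least 200 counts in each library, the ones most like Csf1 were Bmp1, Lurap1l, Ackr3, Rbms3 and Osmr (rank correlation 0.94 to 0.90), and those most like Il34 were Arhgef28, Stox2, Fam171a1, Auts2 and Arhgef40 (0.89 to 0.86). Csf1r was most like Mcub, Serpinb8, Irf5, Rgs10 and Gltp (0.93 to 0.87), Csf2ra most like Tbxas1, Abhd12, Tlr8, Cd300a and Igsf6 (0.94 to 0.91) and Csf2rb most like Gpr137b, Tm6sf1, Fes, Plekho1 and Unc93b1 (0.90 to 0.89). For Spi1 the list was Lilrb4a, Pirb, Nlrp1b, Lilr4b and Cd200r1 (0.95 to 0.93), for Ptprc Itga4, Dock2, Myo1g, Vmn2r96 and Sash3 (0.97 to 0.95), and for Adgre1 Tbxas1, Clec4a3, Pik3r6, Tlr8 and Cd300a (0.93 to 0.91). Cx3cr1 had no close match, with Fndc7, Ctnnd2, C2cd3, Dpp10 and Pcnt at 0.67 to 0.62. Tbxas1, Tlr8 and Cd300a are shared by the lists of Csf2ra and Adgre1.

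The wider pathway was read from 4 lists of 77 genes around the members. Over whole libraries 39 of 75 tested genes were higher and 9 lower in Ob than in Mid_Ob, and 41 of 75 higher and 7 lower in Ob than in Ctrl, while Mid_Ob had 13 of 76 higher and 14 lower than Ctrl. The shares for all genes are those given above for the same comparisons. The median log2 ratio of the lists was 0.63 for Ob over Mid_Ob, against -0.09 for all genes.

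Of the genes that carry the CSF1R signal, 19 of 28 were higher and 1 lower in Ob than in Mid_Ob. Tyrobp, the adaptor DAP12, had 59.7 CPM in Ob and 8.22 CPM in Mid_Ob (7.26-fold, 6.61 to 7.99). The kinase genes Syk (357 and 130 CPM, 2.75-fold) and Lyn (486 and 196 CPM, 2.48-fold) were also higher, as were the PI 3-kinase subunit Pik3r5 (4.70-fold), the PI 3-kinase adaptor Pik3ap1 (3.53-fold) and the docking protein Gab2 (1.92-fold). Pik3r1, the PI 3-kinase subunit used by most cells, had a ratio of 0.991, and the kinase Src was 2.21-fold lower. Of the myeloid transcription factors 13 of 20 were higher and 2 lower: Egr1 (4.78-fold), Irf5 (3.52-fold), Ikzf1 (2.41-fold), Fli1 and Zeb2 (both 2.22-fold), Irf8 (2.0-fold) and Runx1 (1.88-fold) were among the first, and Egr2 (4.01-fold lower) and Bhlhe40 (2.62-fold lower) were the others. CD45 partners gave 7 of 12 higher, with Btk at 3.22-fold, and 1 lower, the T cell kinase Zap70, at 1.13 CPM in Ob against 11.4 CPM in Mid_Ob (10.1-fold). Growth factor receptors and ligands split, with 4 of 19 higher and 5 lower. Csf2rb2 was 5.08-fold and Kitl, the ligand of KIT, 2.51-fold higher, whereas Kit was 3.99-fold and Cx3cl1, the ligand of Cx3cr1, 8.45-fold lower, at 63 counts in Ob and 275 in Mid_Ob.

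Within macrophage-like clusters 9 of 70 list genes were higher and 16 lower in Ob than in Mid_Ob, where 13.1% and 18.4% of all genes were. Against Ctrl, 8 of 70 were higher and 12 lower in Ob, where 13.7% and 24.1% of all genes were. Mid_Ob had 6 of 68 higher and 4 lower than Ctrl, where 8.71% and 14.8% of all genes were. Nothing particular to the lists is read from these counts. Tyrobp was 2.87-fold (2.46 to 3.36) above Ctrl. Plcg2 (2.24-fold), Fgr (2.86-fold), Irf4 (2.95-fold), Batf3 (2.16-fold) and Flt3 (13.8-fold) were lower in Ob than in Mid_Ob, beside the lower dendritic cell marker sum given above. Flt3, a receptor known from dendritic cells, is itself 1 of the 6 genes of that sum, so the sum is not separate evidence. Over whole libraries the dendritic sum had an Ob over Mid_Ob ratio of 1.03 (0.987 to 1.07). Ob cluster 6, led by Clec9a and Flt3, was unnamed and so lay outside the macrophage-like class. How the division into clusters bears on these ratios was not tested.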

How the data were processed

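Nuclei of pooled epididymal fat were profiled as 1 droplet library for each of Ctrl, Mid_Ob and Ob. Per the study's methods, the authors ran Cell Ranger with STAR, then filtered nuclei, removed doublets with DoubletFinder and clustered. The clusters of the deposited tables differ in number from those of the study, and Ob clusters 13 and 18 held 6.18% and 8.39% mitochondrial UMIs, above the study's limit of 5%. The tables thus hold nuclei that its filter would drop, whether doublets had been removed from them is not stated, and none could be removed here from cluster means. Tool versions, the genome build, the annotation and the use of strand or introns in counting were not given in the sources used here. Each deposited table gives, for every gene and cluster, a signal value, the mean count. The authors' log2 fold changes and adjusted p-values of each cluster against the rest stood beside it and were not used. Within a cluster the mean counts are whole multiples of 1 step, so whole UMI counts were recovered by division: 100% of values came out whole within 0.001 counts. No count test was run, since each stage had 1 library and no nucleus numbers were used.

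Counts were summed over clusters and divided by summed UMIs to give CPM, and intervals were exact (Poisson for levels, binomial for ratios and shares, at 95%). Recovery and intervals were tested on simulated data. Clusters were named from markers that left out the 9 genes, with at least 3 markers past 2-fold and 10 counts. Of the listed genes, 29565 of 29625 (99.8%) are in GENCODE M21 (GRCm38), used for positions and overlaps only. The genes named are the members, the 4 most abundant genes of each pathway list and any list gene past 2-fold with 200 counts, and for each member the 5 genes with the highest rank correlation over clusters. Fibroblast, endothelial, adipocyte and other marker lists served for names and for the sums given. Some genes of the pathway lists that this rule would name are not reported here. The members and all lists were chosen with earlier results of these data known. Alternatives were a scaling to the median ratio, equal weight for clusters, a total without genes of the mitochondrial genome, other count minimums (10 and 500) and a 2-fold threshold. Others left out single clusters, testis and epididymal clusters, or unnamed clusters. Leaving out testis, epididymal and unnamed clusters together was chosen after seeing the data. Software was Python 3.11.15, with pandas 2.3.3 for tables, scipy 1.17.1 and numpy 2.4.6 for intervals, and matplotlib 3.10.9 for figures.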

Additional observations from a re-analysis of the deposited data

Results flagged for a closer look

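The Ob over Mid_Ob ratio lay on opposite sides of 1 in different cluster classes for Csf1r and Ptprc. For Csf1r it was 2.79 in adipocyte-like clusters and 0.789 in macrophage-like clusters. For Ptprc it was 2.67 in adipocyte-like, 5.39 in mesothelial-like and 0.880 in macrophage-like clusters. These differences were not tested, since each stage had 1 library. The adipocyte-like ratios rested on Ob cluster 5, without which they were 0.723 for Csf1r and 0.589 for Ptprc. Neither macrophage-like ratio was called lower. Without Ob cluster 2 these were 0.968 for Csf1r and 0.974 for Ptprc, and without Ob cluster 3 they were 0.697 and 0.760.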

How the results depend on the processing

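Of 162 log2 ratios of whole libraries under the alternatives, 50 lay within the interval of the value given, 92 outside it on the same side of 0, 17 outside it on the other side for genes that were not called, and 3 reversed for called genes. The figures were 167, 44, 13 and 1 of 225 in macrophage-like and 83, 39, 1 and 12 of 135 in adipocyte-like clusters. Of 234 counts, 192 stayed within 1.5 times. Most were counts of calls, and the rest counted genes with their highest share in macrophage-like clusters or shared places in the lists of most alike genes. The share of all genes called was computed for the main setting only, not under the alternatives. Leaving out unnamed together with testis and epididymal clusters was chosen after seeing the data.

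Over whole libraries the 1 gene lower in Mid_Ob than in Ctrl became 0 with the median ratio set to 1, with equal weight per cluster and with a 2-fold threshold. The 1 lower in Ob than in Ctrl became 0 with the median set to 1, at 2-fold, without testis and epididymal clusters, and without unnamed ones too. Cx3cr1 then reversed: its log2 ratio was 0.32 without testis and epididymal clusters and 0.16 without unnamed ones too for Mid_Ob over Ctrl, and 0.050 without testis and epididymal clusters for Ob over Ctrl. In the pathway lists, the 13 higher in Mid_Ob than in Ctrl became 7 at 2-fold, 6 without testis and epididymal clusters and 5 without unnamed ones too, and the 14 lower became 7 with equal weight and 4 at 2-fold. The 39 higher in Ob than in Mid_Ob became 24 at 2-fold, and the 41 higher than in Ctrl became 25 at 2-fold, 23 without testis and epididymal clusters and 20 without unnamed ones too.

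In macrophage-like clusters the 2 higher in Mid_Ob than in Ctrl became 0 with a minimum of 500 counts and 1 at 2-fold, and the 1 lower became 0 under both and without Ctrl cluster 9, where the log2 ratio of Csf1 reversed to 1.01. The 2 lower in Ob than in Mid_Ob became 1 with equal weight or at 2-fold and 0 with 500 counts. For Ob over Ctrl, the 0 higher became 1 without Ctrl cluster 9 and 3 without Ctrl cluster 11, and the 1 lower became 0 with equal weight, with 500 counts, at 2-fold, without Ob cluster 2 and without Ctrl cluster 9, 2 without Ob cluster 11 and 3 without Ctrl cluster 11.

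In adipocyte-like clusters the 0 higher in Mid_Ob than in Ctrl became 1 with the median set to 1, and the 1 lower in Ob than in Mid_Ob became 0 at 2-fold. Without Ob cluster 5, the 6 higher in Ob became 0 in both comparisons, and 5 were lower than in Mid_Ob and 4 lower than in Ctrl. The share of all genes called without that cluster was not computed, so these counts cannot be set against it. The log2 ratios then reversed for Ob over Mid_Ob to -0.47 (Csf1r), -0.15 (Csf2ra), -0.17 (Csf2rb), -0.95 (Spi1), -0.76 (Ptprc) and -0.84 (Adgre1), and for Ob over Ctrl to -0.92, -0.18, -0.23, -0.89, -0.68 and -1.08 in the same order of genes. Of the 45 places in the lists of most alike genes, 24 were shared with Pearson correlations, 7 with Ob clusters alone and 11 without testis, epididymal and unnamed clusters. Apart from the clusters and calls dropped by construction, the cause of these shifts was not tested. No paired analysis was possible because the labels carry no replicate numbers and each stage has 1 library.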
